A study of Mus musculus with 4 samples.

Results

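Substitutions on chromosomes 4, 10, 13 and 14 are the single-base changes listed there in the RNA of 2 mouse cancer cell lines, and they are described here by how much of the RNA carried each one. A substitution belonged to the set when its chromosome was 4, 10, 13 or 14 and both its reference and its alternative allele were 1 base. This gave 934 members, 446 in MBT2 and 488 in LM8, of 5971 listed substitutions and 11806 listed variants of any kind. The 934 members cover 901 distinct changes, because 33 of them stood in both lists. The 4 chromosomes were picked from the allele fractions of these same lists, so fractions and counts per chromosome are given as a description, with no test.

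MBT2 is a bladder cancer line and LM8 an osteosarcoma line, both syngeneic with C3H/HeN mice and both left untreated. RPMI-1640 was the medium of MBT2, and MEM with HEPES that of LM8, each with serum and antibiotics. The labels add the number 63 to the MBT2 titles and also hold marks that begin with P, and they explain none of these. Poly(A) RNA of each line was read in 2 libraries, and the labels do not name separate cultures for them, so differences between duplicates may be of technical origin. No normal tissue was sequenced beside the lines, and the lists hold variants and not expression levels, so the cell types were not checked against markers.

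The alt fraction is the number of reads with the alternative base over the reads with either base, summed over the 2 libraries of a line. In RNA, it depends on how many copies of the gene carry the change, on how strongly each copy is transcribed, and on changes made in the RNA itself. A change present on every expressed copy gives a fraction near 1, and one present in few cells or on few copies gives a low fraction. The best known change made in RNA is the deamination of adenosine to inosine by ADAR enzymes, which sequencing reads as A to G on the RNA strand. A caller without a normal sample removes sites that look inherited by their read counts, and inherited sites on 1 gene copy are among these.

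The sequences that carry the main results are given here, 5′ to 3′ along the RNA strand in DNA letters, with the substituted base in capitals and 14 bases on either side. They were read from GENCODE M21 transcripts (GRCm38) by transcript identifier, and they show the reference base. In MBT2, all 3 genic members with a fraction over 0.2 and up to 0.6 were A-to-G changes on the RNA strand. Among genic substitutions of that band, A to G made up 77 of 341 (22.6%) on the other 15 autosomes of MBT2. In LM8 members of the band it made up 3 of 21 (14.3%). All 3 members whose fraction differed between the lines were A to G too, and Cog3 is in both sets:
Cdc42 (minus strand, N92S): atcctcatttgaaaAtgtgaaagaaaagt
Zfp365 (minus strand, 3′ UTR): ttgttattgcaacaAgcatctgattagcg
Cog3 (minus strand, I635V): tcaccattaaggaaAtttccctggacctc
Parg (plus strand, 3′ UTR): tgcactcagcttctAgatctttctcttcc
Phc2 (plus strand, 3′ UTR): gtttctactcctgtAccctctgcaggtgg
Shown beside them are the 3 deepest synonymous members above 0.6 in MBT2 and the only missense one. Of these, Timeless was A to G on the RNA strand too, while Ctsl was G to A, Lta4h C to T and Chd5 T to A:
Ctsl (minus strand, A206): tacccctatgaagcGaaggacggatcttg
Lta4h (plus strand, F578): gatctcgctgccttCgacaaatcccatga
Timeless (plus strand, L141): ttgtatgaattgctAcagctgggctggga
Chd5 (plus strand, C1795S): tggcagaggtggagTgccttgccgagagc
The deepest members over 0.2 and up to 0.6 in LM8 were of mixed kinds:
Tnc (minus strand, R572C): gccatggccaaggcCgctgtgaggacggc
Ybx1 (minus strand, A313T): ctgagaattcgtccGctcccgaggctgag
Tle5 (plus strand, H174Q): ggttctcagacccaCctctccaaggagga

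Member sites held 34301 and 36639 reads in the 2 MBT2 libraries and 38692 and 36627 reads in the 2 LM8 libraries. The median depth per library and site was 47 and 49 reads in MBT2 and 48 and 47 reads in LM8. Summed depths ran from 14 to 1851 reads in MBT2 and from 14 to 2637 reads in LM8. The 95% intervals given below are binomial (Clopper-Pearson). Those of a fraction reflect the counting of reads alone, since reads without molecular identifiers are not independent molecules, and those of a share of substitutions treat listed sites as independent, which sites of 1 gene need not be.

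Fractions of the members fell into a low and a high group with an empty stretch between them. In MBT2, 357 of 446 members had a fraction of at most 0.1, 44 lay over 0.1 and up to 0.2, 4 over 0.2 and up to 0.6, and 41 above 0.6. In LM8 the same bands held 365, 65, 24 and 34 of 488 members. No MBT2 member lay between 0.327, in Cdc42, and 0.782, in Dohh, and no LM8 member lay between 0.324, in Anxa11, and 0.823, at an intergenic site of chromosome 10. On the other 15 autosomes, 3 of 2598 MBT2 substitutions (0.12%) and 1 of 2181 in LM8 (0.05%) lay over 0.4 and up to 0.6. That part of the stretch was thus not particular to the members. Over 0.6 and up to 0.8 those autosomes held 123 (4.73%) in MBT2 and 9 (0.41%) in LM8, against 1 member (0.22%) in MBT2 and 0 in LM8. The MBT2 members next to the limit of 0.6 were Dohh at 0.782, an intergenic site of chromosome 4 at 0.833 and Ctsl at 0.849 on its upper side. On its lower side they were Cdc42 at 0.327, an intergenic site of chromosome 14 at 0.277 and Zfp365 at 0.260. In LM8 the neighbours were 0.823, 0.841 and 0.845 above the limit, and 0.324, 0.311 and 0.298 below it.

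**Figure D1:**
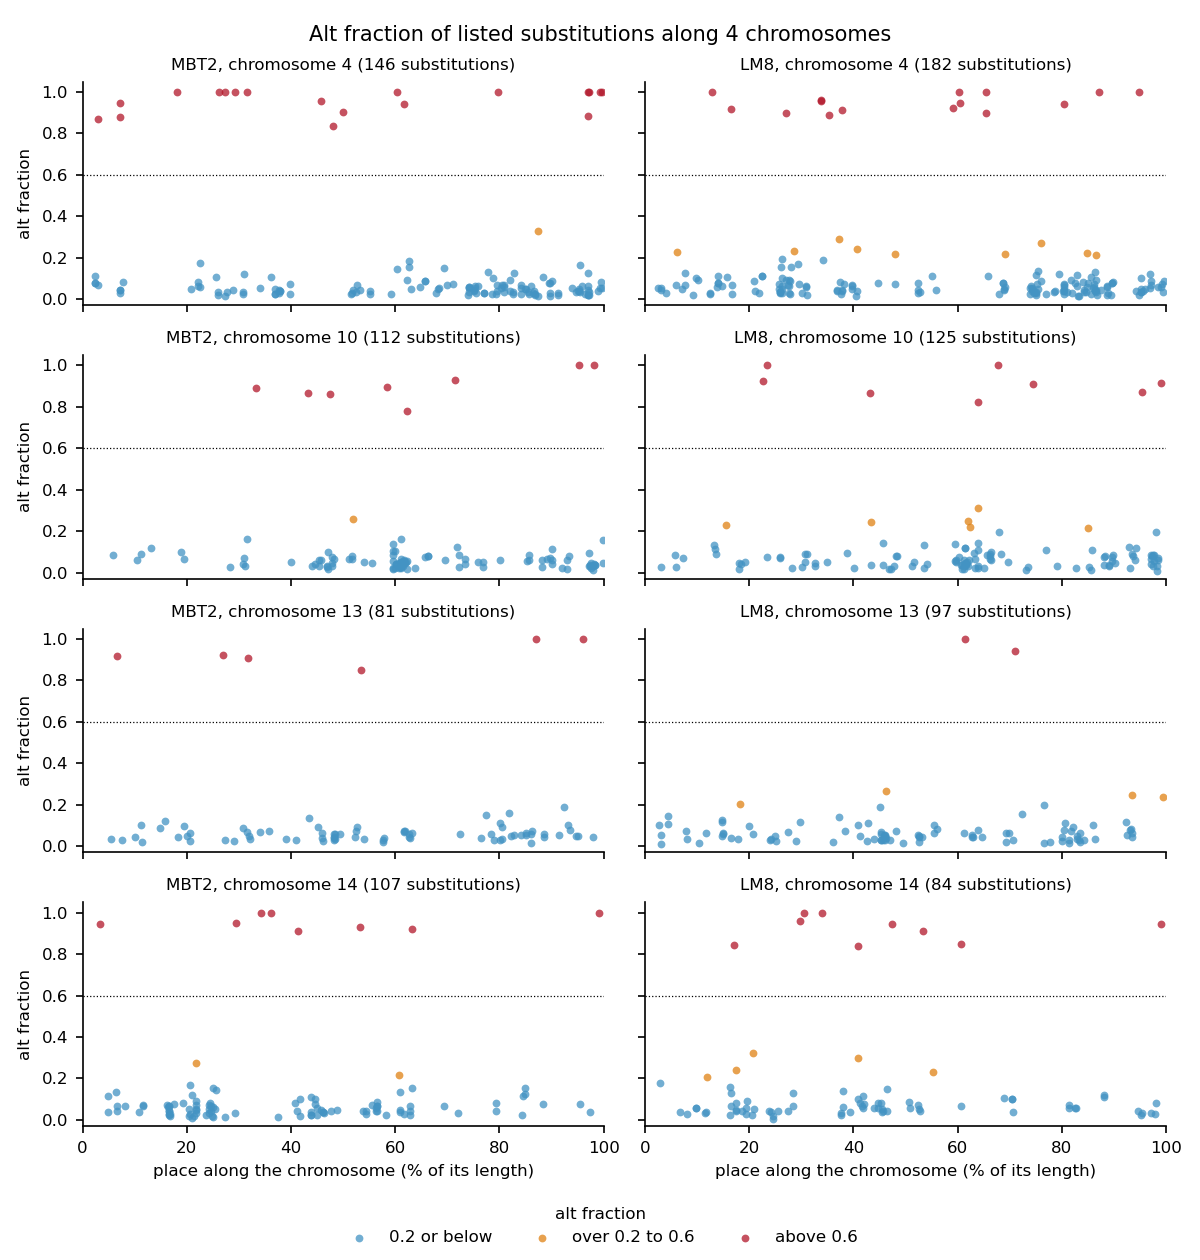
Alt fraction (vertical axis) of each member against its place along the chromosome in percent of the chromosome's length (horizontal axis), MBT2 on the left and LM8 on the right, 1 row per chromosome; a point is 1 substitution, with both libraries summed. Members above 0.6 (red) occur on all 4 chromosomes in both lines, with 2 on chromosome 13 in LM8, while the band over 0.2 and up to 0.6 (orange) holds 4 members in MBT2 and 24 in LM8.

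Above 0.6, MBT2 had 19 members on chromosome 4, 8 on chromosome 10, 6 on chromosome 13 and 8 on chromosome 14. On chromosome 4 they ran from 4.66 to 156 Mb. The window from 120 to 130 Mb held 18 members of any fraction, with 1 above 0.6. The last window, from 150 Mb to the end of the chromosome, also held 18, with 5 of the 19 above 0.6. These 5 were a splice acceptor change in Thap3, a change upstream of Hes2, the Chd5 missense change, an intronic change in Ssu72 and a 3′ UTR change in Perm1. On chromosome 13 no member above 0.6 lay between 64.5 and 105 Mb, and on chromosome 14 none lay between 79.0 and 124 Mb. The windows from 80 to 120 Mb of chromosome 14 held 1, 3, 4 and 2 members of any fraction.

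The deepest of the MBT2 members above 0.6 was a synonymous change at A206 of Ctsl, the lysosomal protease cathepsin L, at position 64514685 of chromosome 13 (GRCm39, exon 5). Its fraction was 0.839 and 0.860 in the 2 libraries and 0.849 over 119 reads (interval 0.772 to 0.908). Next came a splice acceptor change in Thap3 at position 152070320 of chromosome 4, with 0.885 in each library over 113 reads. Lss, which encodes lanosterol synthase of the cholesterol pathway, had a splice acceptor change at position 76367683 of chromosome 10, with 0.875 and 0.923 over 29 reads. Ints8, a subunit of the Integrator complex that processes small nuclear RNAs, had a splice donor change at position 11246094 of chromosome 4, with 0.889 and 1.0 over 18 reads. All 3 splice site members were thus high in both libraries, and the depth behind 2 of them was small.

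Coding changes above 0.6 in MBT2 were mostly silent. Lta4h, the enzyme that makes leukotriene B4, had a synonymous change at F578 with 0.933 and 0.929 over 43 reads. Timeless, which protects stalled replication forks, had one at L141 with 1.0 in both libraries over 23 reads. Pigo, of the glycosylphosphatidylinositol anchor pathway, and the zinc finger gene Zfp189 had synonymous changes at G733 and E547, each with 1.0 over 14 and 15 reads. Missense was 1 change, C1795S in the chromatin remodeller Chd5, with 1.0 in both libraries over 15 reads and an interval of 0.782 to 1.0. Among MBT2 substitutions above 0.8, 1 of 40 members was missense, against 6 of 168 on the other 15 autosomes, where 58 of the 64 missense changes above 0.6 lay at most at 0.8.

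Above 0.6, LM8 had 15 members on chromosome 4, 8 on chromosome 10, 2 on chromosome 13 and 9 on chromosome 14. The 2 on chromosome 13 lay at 74.4 and 85.7 Mb. The window with the most was 50 to 60 Mb of chromosome 4, with 4 of its 13 members above 0.6. The deepest was a change upstream of ENSMUSG00000095779 on chromosome 4, with 0.878 and 0.930 over 147 reads. Klf4, a transcription factor of differentiation and of induced pluripotency, had a 5′ UTR change at position 55532410 of chromosome 4, with 0.870 and 0.909 over 79 reads. Ugcg, which encodes glucosylceramide synthase, had a 3′ UTR change with 0.923 and 0.900 over 56 reads, and Ago3, an Argonaute protein, one with 0.933 and 0.944 over 33 reads. The synonymous changes K287 in Ahrr, the repressor of the aryl hydrocarbon receptor, and P806 in Epha8, an ephrin receptor, had 1.0 in both libraries over 15 and 14 reads.

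The members above 0.6 shared a low depth, as did other substitutions of like fraction. Above 0.8 their median depth was 21.5 reads in MBT2 and 23.5 reads in LM8, against 24 and 26 reads on the other 15 autosomes. Under 40 reads lay 33 of the 41 MBT2 members and 24 of the 34 LM8 members. A fraction of exactly 1 was found in 18 MBT2 members, at 14 to 23 reads, and in 10 LM8 members, at 14 to 15 reads. The caller's germline quality is a Phred-scaled score that is high when a change does not look inherited. Up to 0.2 its median was 93 in both lines, for members and on the other 15 autosomes alike. Above 0.6 it was 7 in MBT2 members and 11 in LM8 members, against 13 and 8 on the other 15 autosomes. The part that inherited C3H/HeN differences have in this band was not tested.

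Most members above 0.8 lay outside annotated mature RNA, again like other substitutions of that band. In MBT2, 32 of 40 were annotated as intronic, intergenic, upstream, downstream or at a splice site, against 131 of 168 (78.0%) on the other 15 autosomes. In LM8 it was 26 of 34 (76.5%), against 123 of 144 (85.4%). The band over 0.6 and up to 0.8 held Dohh alone in MBT2 (1 of 446, 0.22%) and 0 of 488 members in LM8. On the other 15 autosomes it held 123 of 2598 (4.73%) in MBT2, at a median depth of 240 reads. In LM8 it held 9 of 2181 (0.41%) there. Single autosomes among the 15 held 1 to 17 in MBT2, with 1 of 145 (0.69%) on chromosome 8, and 0 to 3 in LM8. A sparse band was thus not particular to the members. Dohh encodes the hydroxylase that completes hypusine on translation factor eIF5A, and its 5′ UTR change had 0.771 and 0.8 over 78 reads. At 100 or more reads, 2 of 210 MBT2 members and 1 of 242 LM8 members were above 0.6, against 121 of 1585 and 11 of 1141 substitutions on the other 15 autosomes.

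**Figure D2:**
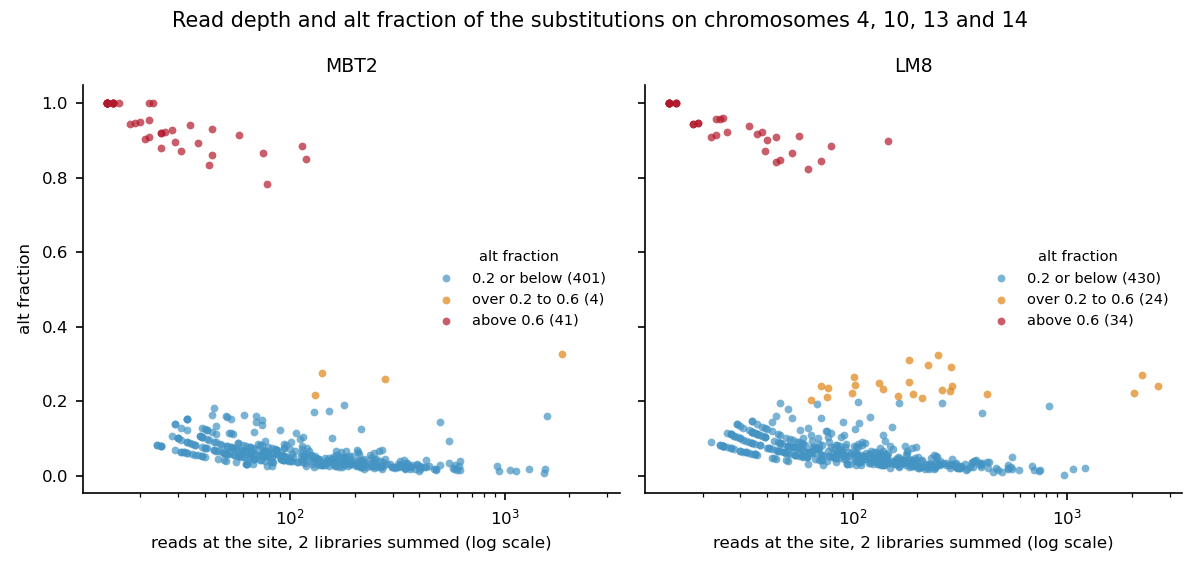
Alt fraction (vertical axis) against the reads at the site, summed over the 2 libraries (horizontal axis, log scale), for the members in MBT2 (left) and LM8 (right); each point is 1 substitution. All members above 0.6 have at most 119 reads in MBT2 and 147 in LM8, and those with a fraction of 1 have at most 23.

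The band over 0.2 and up to 0.6 is the one whose counts led to the choice of the 4 chromosomes, so its shares are given without reading a difference from them. It held 4 of 446 MBT2 members (0.897%, interval 0.245 to 2.28%), against 366 of 2598 substitutions (14.1%, 12.8 to 15.5%) on the other 15 autosomes of the same line. By chromosome there was 1 of 146 on chromosome 4, 1 of 112 on chromosome 10 and 2 of 107 on chromosome 14. Chromosome 13 had 0 of 81, with an upper limit of 4.45% on the exact interval. Shares on the other autosomes ran from 7.83% on chromosome 3 to 23.4% on chromosome 11, and the X chromosome, at 2 of 110 (1.82%), lay among the 4. In LM8 the band held 24 of 488 members (4.92%, 3.18 to 7.23%), against 136 of 2181 (6.24%, 5.26 to 7.33%).

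Depth and the width of the band bear on these shares, and each was varied. No member and no substitution on the other autosomes with under 40 reads fell in this band in either line. At 100 or more reads the shares were 4 of 210 (1.9%) against 333 of 1585 (21%) in MBT2, and 19 of 242 (7.85%) against 109 of 1141 (9.55%) in LM8. With a lower edge of 0.15 in place of 0.2, MBT2 had 18 members (4.04%) against 453 (17.4%) on the other autosomes, and LM8 36 (7.38%) against 251 (11.5%). With a lower edge of 0.25, MBT2 had 3 (0.673%) against 281 (10.8%), and LM8 7 (1.43%) against 52 (2.38%). When both libraries had to lie in the band, MBT2 had 3 against 319 (12.3%), and LM8 11 (2.25%) against 85 (3.90%). MBT2 replicate 1 alone gave 7 members and replicate 2 alone gave 11, against 363 and 381 on the other autosomes. Copy numbers of the 4 chromosomes were not analysed here.

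**Figure D3:**
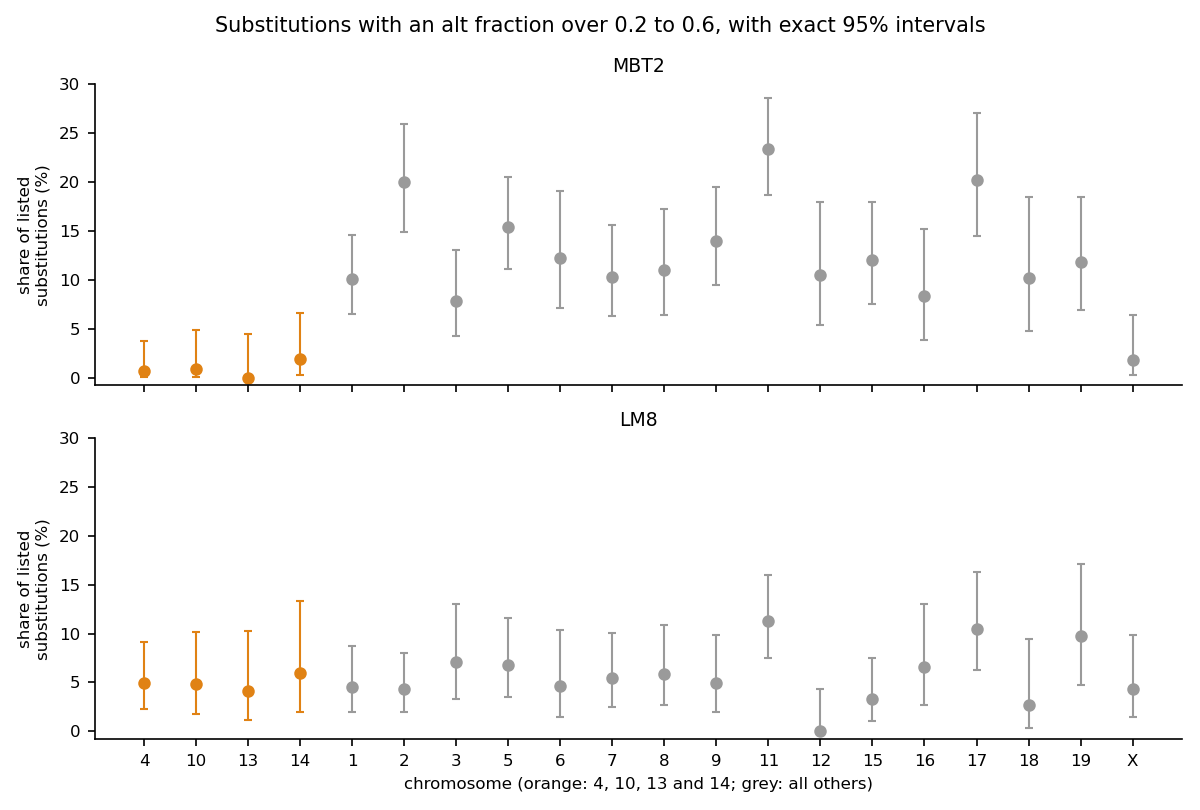
Share of listed substitutions with an alt fraction over 0.2 and up to 0.6 (vertical axis, percent) for each chromosome (horizontal axis), MBT2 above and LM8 below; points are shares and bars exact 95% intervals. In MBT2 the 4 chromosomes (orange) lie at or below 1.87% and every other autosome (grey) at or above 7.83%, while in LM8 they lie among the other autosomes.

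The 4 MBT2 members of the band were few enough to be given in full. Cdc42, a small GTPase that directs actin filaments and cell polarity, had N92S at position 137056339 of chromosome 4 (exon 4). Its fraction was 0.334 and 0.321 in the 2 libraries and 0.327 over 1851 reads (interval 0.306 to 0.349), the deepest member of that line. Zfp365, a zinc finger gene, had a 3′ UTR change at position 67723095 of chromosome 10 with 0.262 and 0.258 over 277 reads. Cog3, a subunit of the conserved oligomeric Golgi complex, had I635V at position 75957159 of chromosome 14 (exon 17) with 0.246 and 0.188 over 130 reads. The remaining one was intergenic, at position 27291630 of chromosome 14, with 0.338 and 0.224 over 141 reads. The libraries were close to each other for Cdc42 and Zfp365 and further apart for the shallower pair.

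Of the 24 LM8 members of the band, 10 were missense, 8 lay in 3′ UTRs and the rest were of other kinds. R572C in Tnc, the matrix protein tenascin C, had 0.229 and 0.256 over 2637 reads (interval 0.225 to 0.258). A313T in Ybx1, an RNA-binding cold shock protein, had 0.269 and 0.272 over 2239 reads (interval 0.252 to 0.289). Ybx1 has a pseudogene in the annotation, Ybx1-ps2, and the assignment of reads between the 2 was not tested. H174Q in Tle5, a member of the Groucho family, had 0.215 and 0.228 over 2045 reads. R78H in Lpar1, a receptor for lysophosphatidic acid, had 0.259 and 0.324 over 286 reads. P166A in Anxa11, a calcium-dependent lipid-binding annexin, had the highest fraction of the band, with 0.336 and 0.311 over 250 reads. M276L in Osgep, of the complex that makes the t6A base of transfer RNA, had 0.308 and 0.289 over 225 reads. None of these 24 was in the MBT2 list.

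The kinds of change were counted as well. C-to-A changes, counted from the pyrimidine of the base pair, made up 8 of 446 MBT2 members (1.79%, interval 0.778 to 3.50%), against 236 of 2598 (9.08%, 8.01 to 10.3%) on the other 15 autosomes. In LM8 they made up 17 of 488 (3.48%, 2.04 to 5.52%), against 66 of 2181 (3.03%, 2.35 to 3.83%). Among substitutions over 0.1, C-to-A changes were 3 of 89 MBT2 members (3.37%), against 186 of 939 (19.8%). Among those up to 0.1 they were 5 of 357 (1.40%), against 50 of 1659 (3.01%). Chromosomes 13, 14 and 4 had the lowest C-to-A shares of the 20 chromosomes in MBT2, and chromosome 10, at 4.46%, was the sixth lowest. The fraction and the class of a substitution go together on the other autosomes, so these shares are not independent of those of the band above.

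Low fractions made up most of the members. Up to 0.2 lay 401 of 446 MBT2 members and 430 of 488 LM8 members, and the median fraction of all members was 0.0541 in MBT2 and 0.0604 in LM8. The median distance of the alternative base from the read end was at most 2 bases for 201 of the 401 (50.1%) and 225 of the 430 (52.3%). In the band over 0.2 and up to 0.6 this held for 0 of 4 and 0 of 24, and above 0.6 for 8 of 41 and 3 of 34. On the other 15 autosomes it held up to 0.2 for 995 of 1941 (51.3%) and 859 of 1892 (45.4%). The part that errors at read ends have in the low band was not tested. In 3′ UTRs, with the strand taken from the gene, T to C was the most frequent low change in MBT2, at 68 of 169 (40.2%), followed by G to A at 44 (26.0%) and A to G at 37 (21.9%). In LM8 the order was G to A at 62 of 192 (32.3%), T to C at 56 (29.2%) and A to G at 34 (17.7%).

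The test between duplicates called no listed site, and it could have called few of the members. By Fisher's exact test per site with Benjamini-Hochberg adjustment over all variants of a line, 0 of 6361 MBT2 variants (0%) and 0 of 5445 LM8 variants (0%) differed between library 1 and library 2. Of the members, 7 of 446 (1.57%) in MBT2 and 18 of 488 (3.69%) in LM8 had an unadjusted p under 0.05. Over all variants these were 239 of 6361 (3.76%) and 212 of 5445 (3.89%), and a likelihood-ratio test also called 0. With the reads they had, 24 MBT2 and 41 LM8 members could have passed as a single call, among them 2 of the 41 and 2 of the 34 above 0.6, so the test says little of the rest. The median absolute difference between libraries was 0.0269 in MBT2 members and 0.0327 in LM8 members, and the largest 0.313 in MBT2, at the intergenic site of chromosome 4 with 0.647 and 0.960, and 0.278 in LM8. Above 0.6, each of the 41 MBT2 and 34 LM8 members was above 0.6 in both of its libraries.

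Between the lines, 1261 variants stood in both lists and were tested on summed reads with Fisher's exact test, two-sided, adjusted over all 1261. Of these, 92 (7.3%) differed at an adjusted p of at most 0.05, with 24 (1.9%) higher in MBT2 and 68 (5.39%) lower in MBT2. Among the 33 members in both lists, 3 (9.09%) differed, 2 higher and 1 lower in MBT2. Of all 230 shared substitutions, 13 (5.65%) differed, 10 higher and 3 lower in MBT2, and the remaining calls were variants of other types. The test sets reads of the 2 lines against each other, so the spread between libraries is shown by the per-library values. Libraries of the 2 lines did not overlap at 477 of the 1261 variants, 64 of the 230 substitutions and 8 of the 33 members. All 3 members that differed were A to G on the RNA strand, a change seen in 10 of the 33. Over all shared substitutions, A to G had 7 calls among 40, C to T 2 among 7, T to G 1 among 3 and C to G 1 among 1. Substitutions without an assigned RNA strand had 2 among 42, while G to A had 0 among 79 and T to C 0 among 53. The A-to-G calls among members are thus not particular to them. Of the 3, 2 lost their call when 1 library was left out, as given below.

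Cog3 I635V had the largest difference of the members. Its fraction was 0.246 and 0.188 in the MBT2 libraries, 0.215 over 130 reads, against 0.885 and 0.8 in the LM8 libraries, 0.848 over 46 reads. All MBT2 values lay below all LM8 values, and the fraction was lower in MBT2 by a difference of -0.63 (Fisher's exact test, adjusted p = 5.2e-12). It kept this direction and its call without any 1 library, with adjusted p between 3.41e-10 and 6.25e-05, and from 2.28e-12 to 6.25e-05 over all alternatives. The same isoleucine-to-valine change is known as an A-to-I editing site of the human gene. In LM8 the base just before it on the RNA, at position 75957160, was listed too, as an A-to-G change that leaves E634 the same, with a fraction of 0.0667 over 45 reads.

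The other 2 lay in 3′ UTRs and were higher in MBT2. Parg, which encodes the enzyme that removes poly(ADP-ribose) chains, had 0.161 and 0.131 in MBT2 over 498 reads, against 0.0196 and 0.0674 in LM8 over 191 reads, at position 32018582 of chromosome 14. The difference was 0.10 (Fisher's exact test, adjusted p = 0.00232). Without LM8 replicate 1 it was 0.08 and was no longer called, with an adjusted p of 0.44, in a range of 0.00119 to 0.44 over the alternatives. Phc2, a Polycomb repressive complex protein, had 0.0772 and 0.108 in MBT2 over 547 reads, against 0.0508 and 0.0145 in LM8 over 256 reads, at position 128645968 of chromosome 4. The difference was 0.06 (Fisher's exact test, adjusted p = 0.0208). It was not called by the same exact test without MBT2 replicate 2 (difference 0.05, adjusted p = 0.3) or without LM8 replicate 2 (difference 0.04, adjusted p = 0.756), and its adjusted p ran from 0.0135 to 0.756 over the alternatives.

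**Figure D4:**
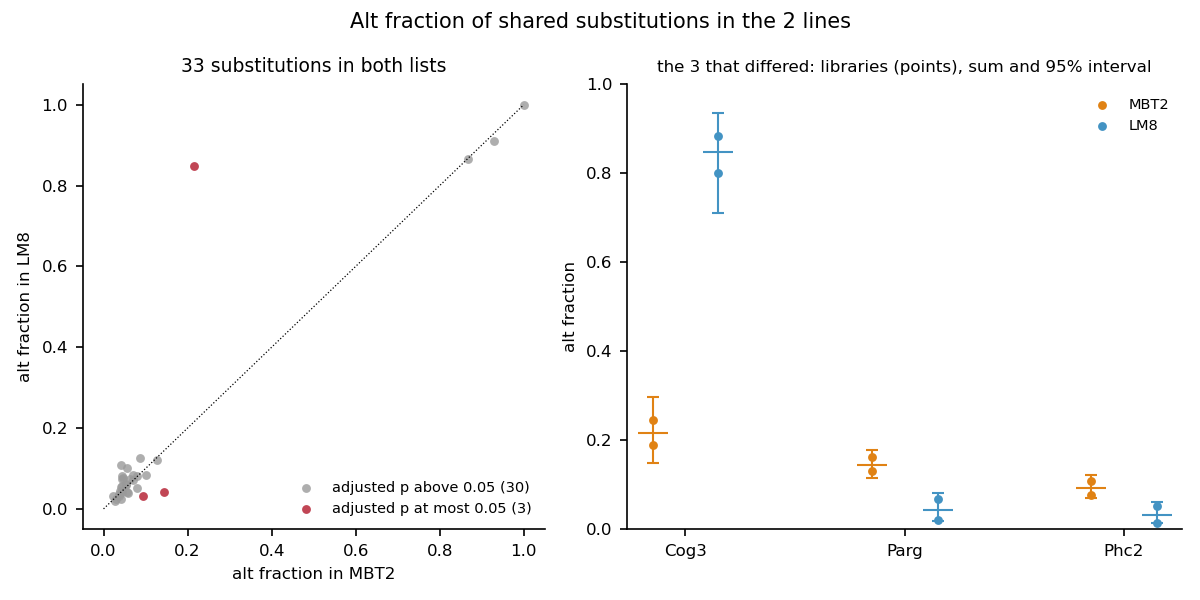
Left, alt fraction in LM8 (vertical axis) against that in MBT2 (horizontal axis) of the 33 members in both lists, with the 3 that differed in red and the line of equal values dotted. Right, alt fraction (vertical axis) of these 3 in MBT2 (orange) and LM8 (blue); points are the 2 libraries, the short line is the fraction over both and the bar its exact 95% interval. Cog3 lies at 0.215 in MBT2 and 0.848 in LM8. The libraries of the 2 lines do not overlap for any of the 3, which held for 8 of the 33 members and for 477 of 1261 shared variants.

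Of the 33 members in both lists, 3 were above 0.6 in both, as were 15 of all 230 shared substitutions and 642 of all 1261 shared variants. Each of the 3 had an adjusted p of 1 by Fisher's exact test between the lines. They had 14 to 75 reads per line, which leaves small differences unseen. The exonic change in the predicted gene Gm9118 on chromosome 10 had 0.867 in MBT2 over 75 reads and 0.865 in LM8 over 52 reads. An intergenic change at position 66701661 of chromosome 14 had 0.929 in MBT2 over 28 reads and 0.909 in LM8 over 44 reads. An intronic change of Tek, the angiopoietin receptor, had 1.0 in both, over 14 and 15 reads. Itgbl1, an integrin beta-like gene, had an intronic change above 0.6 in each line at sites 1210 bases apart. Within 2 kb of a member of the other line lay 54 of 446 MBT2 members and 57 of 488 LM8 members, leaving out the same change itself, and 1 of 41 and 4 of 34 of those above 0.6.

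Genes of a list of 105 cancer-related genes, covering drivers, DNA repair, chromatin and cell cycle, were looked up among the members. In MBT2, 15 of them had 18 members, and in LM8, 19 had 24 members, with 0 members over 0.2 in either line. The list members lay inside annotated mature RNA, but for a splice donor change of Parp2 in MBT2 and intronic changes of Fhit in LM8. Of all members inside it, 12 of 332 (3.61%) were over 0.2 in MBT2 and 28 of 390 (7.18%) in LM8. Beside these shares, 0 of 18 and 0 of 24 do not set the list members apart. Their median fractions were 0.0465 in MBT2 and 0.0469 in LM8, beside 0.0541 and 0.0604 for all members. In MBT2, 4 altered the protein or a splice site, among them H768Q in Top2b, a DNA topoisomerase, with 0.115 in both libraries over 52 reads. Prkcd, a protein kinase C, had R473Q at 0.0536 and E34V at 0.0725, and Parp2, a DNA damage sensor, had a splice donor change at 0.0833. In LM8, 8 altered the protein, and the highest was A204T in Msh3, a mismatch repair protein, with 0.184 and 0.211 over 106 reads. Jarid2, a partner of Polycomb complex 2, had V961L at 0.139 over 36 reads, and Mutyh, a glycosylase that removes adenine opposite oxidised guanine, had D223G at 0.0465 and A368T at 0.0400, each without an alternative read in the second library.

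Members were spread over many genes, 331 in MBT2 and 380 in LM8, with 95 in both. In MBT2, 8 genes had 3 or more members, led by Abca7, a lipid transporter, with 4 of 0.0317 to 0.0645. Ccne2, which encodes cyclin E2, had 2 low members and 1 of 0.880 downstream of it. In LM8, 7 genes had 3 or more, led by Samd8 and Ubap2 with 4 each. Cdk13, a kinase of RNA polymerase II, had 3 in LM8, N177S at 0.0492, T166A at 0.119 and Q35R at 0.125, all missense and all A to G on the RNA strand. Q35R was also in the MBT2 list, at 0.0877 over 57 reads, against 0.125 over 40 reads in LM8, and did not pass the test between the lines (Fisher's exact test, adjusted p = 1).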

How the data were processed

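The deposited files are 1 variant list per line, in variant call format 4.2, whose values are read counts per allele and library. Both libraries of a line were called together with Mutect 2.2 and without a normal sample, filtered and selected with GATK 4.1.5.0 and annotated with SnpEff 5.1d (database 105, GRCm39), per the file headers. The submitters' processing notes name GATK 4.3.0, bcl2fastq 2.17.1.14, cutadapt 1.9.1, STAR 2.7.9a and GRCm39. The sources used here do not give how spliced reads were treated. Filters for sites scored as inherited, and for at most 2 events in a region, shape which fractions can appear, per the file headers.

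Alt fractions were computed from the deposited allele read counts, with no further filter on depth. Bands, 10 Mb windows, exact 95% intervals and Fisher's exact tests with Benjamini-Hochberg adjustment (threshold 0.05) were computed with Python 3.11.15, scipy 1.17.1 and pandas 2.3.3. The tests were tested on simulated data. Strand and sequence came from GENCODE M21 by transcript identifier, with 150 of 153 MBT2 and 177 of 178 LM8 coding members matched, and 159 of 171 and 185 of 202 in 3′ UTRs. Members, lists and the edges of the bands were chosen with earlier results of these data known. Named were, per line and chromosome, up to 5 members above 0.6 by predicted impact and then depth, of which the text gives a part; the 3 members on either side of 0.6; genes with 3 or more members; shared members that passed the test; and cancer-list members that alter a protein. The members over 0.2 and up to 0.6, and Cog3 E634, were chosen after their values were seen. Alternatives changed the limit, depth, test, variant type, library and window.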

Additional observations from a re-analysis of the deposited data

How the results depend on the processing

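Counts above 0.6, 41 in MBT2 and 34 in LM8, stayed within 1.5 times under limits of 0.5, 0.7 and 0.8, the caller's own fraction, members private to a line, isolated members, and either library alone (41 to 41 in MBT2, 34 to 34 in LM8). Limits of 0.5 and 0.7 could not change these counts, because no member of either line lay between 0.327 and 0.782. The counts changed with depth, to 23 in MBT2 and 20 in LM8 at 20 or more reads, and to 8 in MBT2 and 10 in LM8 at 40 or more. With 10 Mb windows, the most members above 0.6 in 1 window were 5 in MBT2 and 4 in LM8. Windows of 5 Mb gave 3 in each line, and windows of 20 Mb gave 5 in each. The band over 0.2 and up to 0.6, an alternative set chosen after seeing the data, held 4 MBT2 members, 18 with a lower edge of 0.15, and 7 to 11 with 1 library alone. It held 24 LM8 members, 7 with a lower edge of 0.25, 11 when both libraries had to lie in it, and 23 to 29 with 1 library alone. Of 92 shared variants that differed between the lines, 13 were called when substitutions alone were tested, which leaves out variants of other types, and 54 to 73 without 1 library, fewest without LM8 replicate 1. The 3 members called were 2 or 3 in these settings. The cause of the other changes was not tested. Tests between duplicates called 0 sites under each alternative run. No paired analysis was possible because the lines share replicate numbers by name alone and each site was tested on its reads, with no model that could hold a block. Depths of 14 to 40 reads leave wide intervals for most members above 0.6.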
